A study of Mus musculus with 5 samples.

Results

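The genes described here are 10 genes of wounded or differentiating epidermis, out of 10664 genes in the authors' deposited comparison. They were chosen by name: the alarmins S100a8 and S100a9, the small proline-rich protein genes Sprr1a, Sprr1b, Sprr2d and Sprr2h, and the envelope genes Ivl, Krtdap, Sbsn and Tgm1. All 10 were among the genes analysed, each at a mean level of 16 CPM (counts scaled to a common library total) or more. The study sorted mouse keratinocytes from skin around wounds, 5 days after wounding, as live CD49f+ cells negative for an antibody mix against blood lineages. The mutant samples were 2 Nrf2 conditional knockouts (cKO, genotype K14Cre-ER; Nrf2 flox/flox, numbered 2 and 3), and the controls were 3 wild-type littermates (WT, genotype K14Cre-ER; Nrf2 +/+). Both genotypes carried K14Cre-ER, a Cre recombinase driven by the keratin 14 promoter of basal keratinocytes, so Nrf2 was targeted in that lineage and not in other cells of the wound. Cre-ER recombinases act after an inducing drug, and the sources used here do not give the induction scheme. The labels do not state whether the libraries came from separate animals, so the p-values measure a spread between libraries that may be technical.

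S100a8 and S100a9 encode small calcium-binding proteins that pair as calprotectin, which is released as a danger signal and is made by neutrophils and by stressed or wounded keratinocytes. The cornified envelope is the protein shell under the membrane of dead surface keratinocytes. Transglutaminases such as the product of Tgm1 build it by cross-linking involucrin (Ivl), small proline-rich proteins and other precursors. NRF2, the transcription factor encoded by Nfe2l2, binds antioxidant response elements, and overactive NRF2 in mouse epidermis is known to induce small proline-rich protein genes.

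S100a9 was the 1 gene of the 10 that passed the test, and it fell in cKO. S100a8 had the next lowest value and did not pass. The 8 envelope genes lay between -0.13 and 1.28 on the log2 scale of cKO over WT, and none of them passed. Thus 1 of 10 genes was called lower and 0 higher at the authors' false discovery rate (FDR) of 0.05, while 2.15% of all genes were called lower and 0.459% higher in the authors' deposited table. The median log2 fold change of the 10 genes was 0.11, against 0.0040 over all genes. At an unadjusted p of 0.05, 3 of the 10 passed: S100a9, S100a8 and Sprr2d.

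The proximal promoters of 4 genes are shown because S100a8 and S100a9 had the lowest values and because Sprr1a and Sprr2d belong to the family known to respond to NRF2. Each stretch runs from 150 bases before to 10 bases after the RefSeq start (GRCm38.p6), on the strand of the gene. Capitals mark the AP-1 site TGAGTCA, the TATA box TATAAA and TGANNNNGC, a loose pattern for the antioxidant response element core. Each was searched on both strands.
S100a8 (chr3:90668921-90669080, plus strand): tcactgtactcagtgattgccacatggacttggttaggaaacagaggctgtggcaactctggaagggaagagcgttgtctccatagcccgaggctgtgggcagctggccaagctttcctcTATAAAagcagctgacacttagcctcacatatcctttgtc
S100a9 (chr3:90695712-90695871, minus strand): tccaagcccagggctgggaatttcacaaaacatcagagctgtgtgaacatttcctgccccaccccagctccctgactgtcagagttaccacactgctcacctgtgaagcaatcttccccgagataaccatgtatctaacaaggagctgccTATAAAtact
Sprr1a (chr3:92485872-92486031, minus strand): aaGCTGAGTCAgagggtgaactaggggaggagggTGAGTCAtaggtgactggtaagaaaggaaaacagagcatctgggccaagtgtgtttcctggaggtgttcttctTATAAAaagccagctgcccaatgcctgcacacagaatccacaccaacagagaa
Sprr2d (chr3:92338990-92339149, plus strand): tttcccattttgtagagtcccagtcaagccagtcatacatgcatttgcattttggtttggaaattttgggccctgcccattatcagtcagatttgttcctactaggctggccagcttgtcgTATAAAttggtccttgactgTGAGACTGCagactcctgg

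In the full RefSeq windows, 250 bases before to 50 after the start, the loose antioxidant core pattern was present for 3 of the 10 genes. These were Sprr1a, Sprr1b and Sprr2d, and 41.3% of 32817 windows of all genes held the pattern. The AP-1 site was present for 6 of the 10, Sprr1a, Sprr2d, Sprr2h, Ivl, Krtdap and Sbsn, against 5.20% of all windows. The TATA box was present for 8 of the 10, against 13.6% of all windows, and in S100a9 it begins at the annotated start itself. In Sprr1a the antioxidant core match, read on the opposite strand, overlaps the first AP-1 site. This was the 1 overlap among the 7 AP-1 matches. The grainyhead site AACCGGTT was found for 0 of the 10 and in 0.146% of all windows. These matches describe the letters in the windows only.

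The targeted gene, Nfe2l2 on the minus strand of chromosome 2 (75675513 to 75704641, mm10), did not pass the test, and the authors' deposited table gives its log2 fold change as -1.99 with FDR 0.126. No value per sample was analysed here. Each result is therefore the authors' fold change with a 95% interval implied by their p-values, which carries no adjustment for the number of genes. It rests on the gene's own p-value for S100a8, S100a9, Sprr2d and Krtdap, and on the p-values of other genes for the 6 genes with changes under 0.5. Those other genes lay within 0.5 log2 CPM of Sprr2h and Tgm1, within 1 of Sprr1b and Ivl, and within 4 of Sprr1a and Sbsn. Levels implied for each genotype follow from the deposited mean level and fold change, with both genotypes weighing alike. For Nfe2l2 they were 75.9 CPM in cKO and 302 CPM in WT, with an implied 95% interval of -3.38 to -0.61. Its unadjusted p by the authors' test was 0.00478. Whether the deposited CPM are per length is not stated, so levels are not ranked between genes, and sums over a marker list are given only to set the genotypes side by side over the same genes. The basal keratinocyte genes Krt5 and Krt14 averaged 1198 CPM and 894 CPM, with log2 fold changes of 0.10 and -0.24 in the authors' deposited table. All 12 listed basal keratinocyte markers were analysed, 7 with lower and 5 with higher values, and 0 were called. Their median was -0.24, from -0.74 for Krt15 to 0.54 for Perp. Itga6 had -0.49 in the authors' deposited table.

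S100a9 (ENSMUSG00000056071, chromosome 3, 90692632 to 90695721, minus strand, mm10) encodes the partner chain of S100A8 in calprotectin. Its implied level was 15.4 CPM in cKO and 86.3 CPM in WT. It fell by 2.48 on the log2 scale (implied 95% interval -3.92 to -1.05, FDR 0.0305 in the authors' deposited table), which makes the WT level 5.59 times that of cKO. Among 1518 genes within 0.5 log2 of its mean level, 7 were called, 6 of them lower, and 6 had a log2 fold change as low, itself included. When the p-values of the authors' deposited table were adjusted by the Benjamini-Yekutieli method, the call ended (adjusted p = 0.301), as it did at a threshold of 0.01 and with level filters of 5 CPM (adjusted p = 0.0574) and 16 CPM (adjusted p = 0.157).

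S100a8 (ENSMUSG00000056054, chromosome 3, 90668978 to 90670035, plus strand, mm10) lies 22597 bases from S100a9 and is its nearest analysed neighbour. Its implied level was 20.8 CPM in cKO and 73.6 CPM in WT. The log2 fold change was -1.83 (implied 95% interval -3.22 to -0.43), and it did not pass, with FDR 0.214 in the authors' deposited table. With an empirical null applied to the p-values of the authors' deposited table, S100a8 passed as well (adjusted p = 0.0292). That null also raised the calls over all genes from 278 to 593. S100a8 did not pass under any other setting, with an adjusted p of 0.395 after the level filter of 5 CPM. The intervals of S100a8 and S100a9 overlap, and the difference between the genes was not tested.

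Markers of other cells moved in the same comparison. Of 20 neutrophil markers, 5 were analysed, 4 with lower values and 1 with a higher value, and the median was -0.61. The 1 called gene was Stfa2, a stefin A gene, which fell by 2.63 at 14.7 CPM (FDR 0.0264 in the authors' deposited table). Cxcr2, Itgam and Il1r2 had -1.03, -0.61 and -0.54, and BC100530 had 0.14 in the authors' deposited table. The summed implied level of these 5 markers was 805 CPM in cKO and 769 CPM in WT. Without the stefin gene BC100530 the other 4 summed to 24.3 CPM in cKO and 58.1 CPM in WT. Of the 50-base windows of BC100530 and Stfa2 transcripts, 36.2% and 15.9% occur in transcripts of other genes, so their reads may be split with other stefin genes. The defining neutrophil markers Ly6g, Mpo, Elane, Ngp and Retnlg were not analysed here. Of 15 macrophage and dendritic cell markers, 3 were analysed and 0 were called by the authors' test, with 1, Cd68, at an unadjusted p under 0.05 and a log2 fold change of 1.46, higher in cKO, in the authors' deposited table.

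All 9 analysed endothelial markers had lower values and 7 were called, with a summed implied level of 19.4 CPM in cKO and 174 CPM in WT. Of 6 analysed fibroblast markers, 4 were called lower and 2 had higher values, with 349 CPM in cKO and 1234 CPM in WT. All 5 analysed melanocyte markers had lower values and 3 were called, with 34.9 CPM in cKO and 135 CPM in WT. The part of these cells in the S100a8 and S100a9 values was not tested. In sorted bulk samples, fewer cells of a type and less RNA per cell cannot be told apart.

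**Figure D1:**
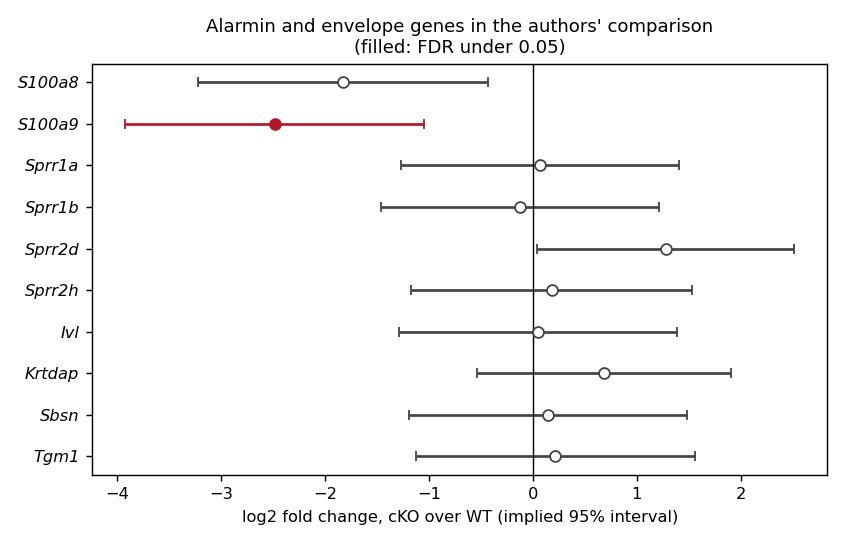
Log2 fold change, cKO over WT, of the 10 genes in the authors' comparison, 1 gene per line; bars are 95% intervals implied by the deposited p-values and filled points have an FDR under 0.05. S100a9 at -2.48 is the 1 filled point, S100a8 lies at -1.83, and the intervals of 7 genes span 0.

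The small proline-rich proteins are short proline-rich chains that transglutaminases cross-link as spacers in the envelope. Sprr2d (ENSMUSG00000042212, chromosome 3, 92339140 to 92340873, plus strand, mm10) had the highest value of the 10 genes. Its implied level was 128 CPM in cKO and 53.0 CPM in WT, a log2 fold change of 1.28 (implied 95% interval 0.04 to 2.51). It did not pass, with an unadjusted p of 0.0427 and FDR 0.547 in the authors' deposited table. Of 1306 genes of like level, 5 had a value as high, itself included.

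Sprr2h (chromosome 3, 92385685 to 92387324, plus strand, mm10), a second member of the same subfamily, had implied levels of 42.6 CPM in cKO and 37.5 CPM in WT. Its log2 fold change was 0.18 in the authors' deposited table (implied 95% interval -1.17 to 1.54). Sprr1a (chromosome 3, 92483952 to 92485895, minus strand, mm10) had implied levels of 2745 CPM in cKO and 2613 CPM in WT, with a log2 fold change of 0.07 in the authors' deposited table (implied 95% interval -1.26 to 1.41). Sprr1b (chromosome 3, 92436809 to 92438789, minus strand, mm10) had implied levels of 259 CPM in cKO and 282 CPM in WT, with -0.13 in the authors' deposited table (implied 95% interval -1.46 to 1.21). The values of these 3 genes were near 0, but each interval spans more than a doubling either way, so changes of that size cannot be told from none. The sign of Sprr1b turned to 0.11 when centred on basal keratinocyte markers.

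The 8 other analysed small proline-rich protein genes, out of 12 listed, had a median log2 fold change of -0.07, with 4 lower and 4 higher values. Of these 8, 0 passed by the authors' test or at an unadjusted p of 0.05. A further analysed entry of the family, Sprr2j-ps, was not counted among these 8. It had -2.72 at 2.21 CPM, with an unadjusted p of 0.00197 by the authors' test and FDR 0.0673 in their deposited table. Sprr2a2, at a mean level of 599 CPM, had -0.24 and Sprr2a1, at 28.1 CPM, had -0.57 in the authors' deposited table. These genes are near copies, and 96.3% of the 50-base windows of Sprr2a1 transcripts occur in transcripts of other genes, mostly Sprr2a2, so the split of their reads is uncertain. For Sprr2d 4.27% of windows occur elsewhere, in Sprr2i above all, and for Sprr1a, Sprr1b, Sprr2h, S100a8, S100a9 and Krtdap 0.0%. The reads were 50 bases long and paired, so a pair can be more distinct than a single window.

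**Figure D2:**
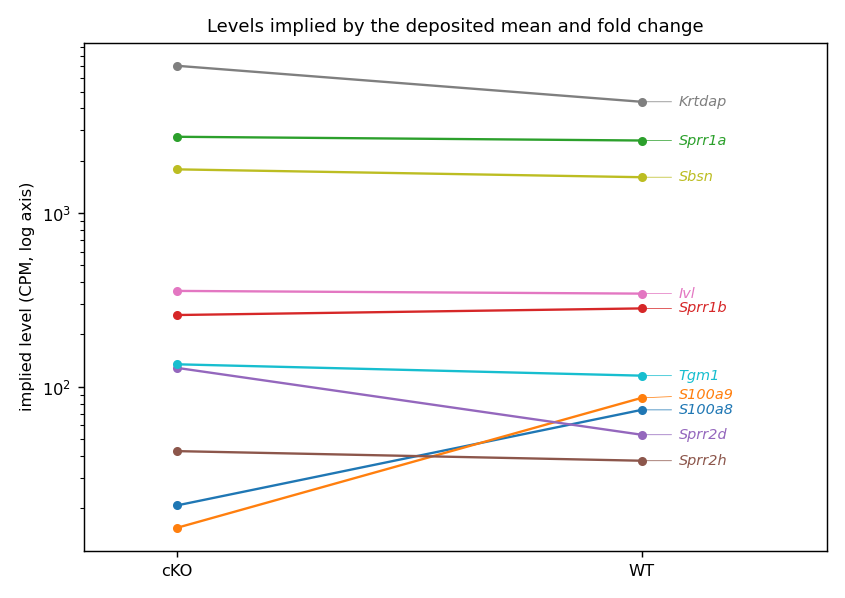
Level of each of the 10 genes in cKO (left) and WT (right), in CPM on a log axis, as implied by the deposited mean level and fold change; each line is 1 gene and there is no spread between samples to draw. S100a9 (15.4 CPM in cKO, 86.3 CPM in WT) and S100a8 (20.8 CPM in cKO, 73.6 CPM in WT) are lower in cKO, Sprr2d (128 CPM in cKO, 53.0 CPM in WT) is higher in cKO without passing the test, and Sprr1a, Sprr1b, Sprr2h and Ivl are nearly level.

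Ivl (ENSMUSG00000049128, chromosome 3, 92570902 to 92573735, minus strand, mm10) encodes involucrin, a glutamine-rich protein cross-linked early in envelope assembly. Its implied level was 356 CPM in cKO and 344 CPM in WT, a log2 fold change of 0.05 in the authors' deposited table (implied 95% interval -1.28 to 1.39). Centred on genes at 16 CPM or more, its sign turned to -0.017. Krtdap (ENSMUSG00000074199, chromosome 7, 30787896 to 30791097, plus strand, mm10), which encodes a secreted protein of differentiating keratinocytes, had implied levels of 7031 CPM in cKO and 4364 CPM in WT. Its log2 fold change of 0.69 (implied 95% interval -0.53 to 1.91) did not pass, with FDR 1.0 in the authors' deposited table.

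Sbsn (chromosome 7, 30751471 to 30756134, plus strand, mm10), which encodes suprabasin, a transglutaminase substrate of the suprabasal layers, had implied levels of 1783 CPM in cKO and 1606 CPM in WT. Its log2 fold change was 0.15 in the authors' deposited table (implied 95% interval -1.19 to 1.49). Tgm1 (ENSMUSG00000022218, chromosome 14, 55700009 to 55713926, minus strand, mm10), the membrane-bound transglutaminase of keratinocytes, had 135 CPM in cKO and 116 CPM in WT, with a log2 fold change of 0.22 in the authors' deposited table (implied 95% interval -1.12 to 1.56). Sbsn shares 4656 bases with the transcript Tmem147os on the same strand, and Tgm1 shares 12274 bases with the antisense gene Gm49067, counted over introns and exons. Of their 50-base transcript windows, 6.96% for Sbsn and 4.18% for Tgm1 occur in transcripts of those genes, so that part of their reads may belong to them.

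**Figure D3:**
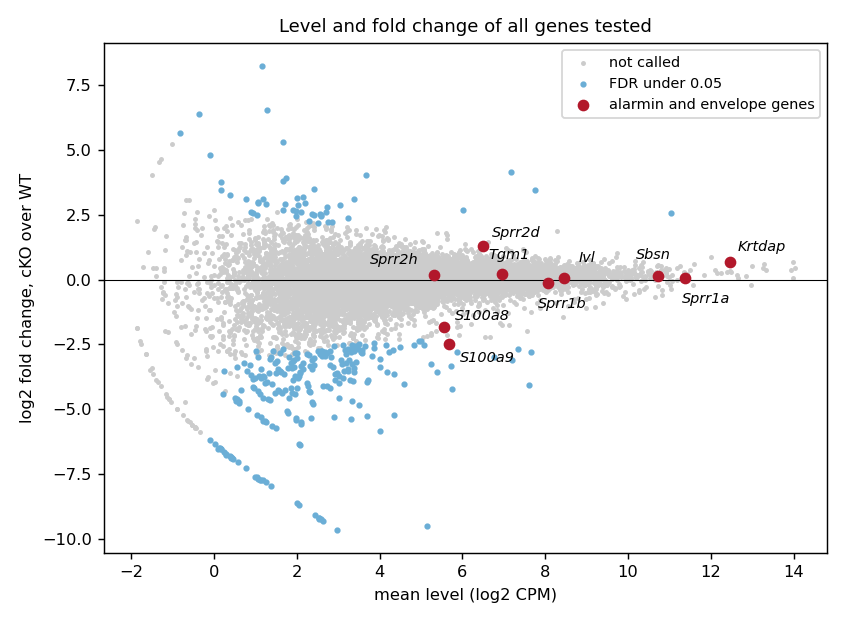
Mean level (log2 CPM) against log2 fold change, cKO over WT, of all 10664 genes, with called genes (FDR under 0.05) in blue and the 10 alarmin and envelope genes in red. Most called genes have low levels, with a median of 4.27 CPM, and S100a9 lies nearest to 0 among the genes called lower near its own level.

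Among other transglutaminases, Tgm7 (chromosome 2, 121093565 to 121109795, minus strand, mm10) rose by 2.36 on the log2 scale, with an average of 9.39 CPM (FDR 0.0186 in the authors' deposited table). It was the 1 called gene of 4 analysed out of 7 listed, whose median was -0.66. Tgm3 and Tgm5, which also act in epidermis, had -0.84 and -0.48 in the authors' deposited table and did not pass. Of 16 analysed structural genes of the envelope, out of 43 listed, 0 passed by the authors' test or at an unadjusted p of 0.05, with 8 lower and 8 higher values and a median of 0.0017. The filaggrin family genes Flg2 and Hrnr had -1.03 and -0.88 in the authors' deposited table. Lor, which encodes loricrin, the main protein of the mature envelope, had -0.64 at 15.0 CPM in the authors' deposited table. Serpinb2, a protease inhibitor of the envelope, had 0.66, and the plakin genes Evpl and Ppl had 0.54 and 0.23 in the authors' deposited table.

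Among 16 other S100 genes listed, 8 were analysed, 6 with lower and 2 with higher values, and their median was -0.21. None passed by the authors' test, and 1, S100a1, had an unadjusted p under 0.05. Its log2 fold change was -2.45 at a mean level of 2.12 CPM (FDR 0.192 in the authors' deposited table). S100a4 had -1.22 at 15.0 CPM in the authors' deposited table. The S100 genes at 16 CPM or more lay closer to 0 in the authors' deposited table: S100a14 had -0.33, S100a16 0.33, S100a6 -0.15, S100a10 -0.14 and S100a11 0.06.

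Of 27 other alarmin and antimicrobial genes listed, 11 were analysed, 9 with lower and 2 with higher values, and the median was -0.82. The 1 called gene was Saa3, an acute-phase serum amyloid A gene, which fell by 5.63 and averaged 2.64 CPM (FDR 0.000623 in the authors' deposited table). At an unadjusted p of 0.05 Chil1, a chitinase-like gene, passed as well, with -1.76 at 3.29 CPM in the authors' deposited table. Slpi, a secreted protease inhibitor, had -1.44 at 1.87 CPM, and the alarmin cytokine gene Il1a had -1.18 at 10.2 CPM in the authors' deposited table. The beta-defensin genes Defb14, at 1.80 CPM, and Defb6, at 48.8 CPM, had -1.70 and 0.95 in the authors' deposited table. The alarmin gene Il33 had -0.25 and the antimicrobial gene Lcn2, at 11.3 CPM, had -0.05 in the authors' deposited table. Of 8 listed receptors and adaptors of alarmins, 5 were analysed and 0 passed by the authors' test. Ly96, which encodes the TLR4 partner MD-2, was the 1 with an unadjusted p under 0.05, with -2.23 at 33.1 CPM and FDR 0.0674 in the authors' deposited table. Bsg, which encodes a receptor for S100A9, had 0.15 in the authors' deposited table.

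**Figure D4:**
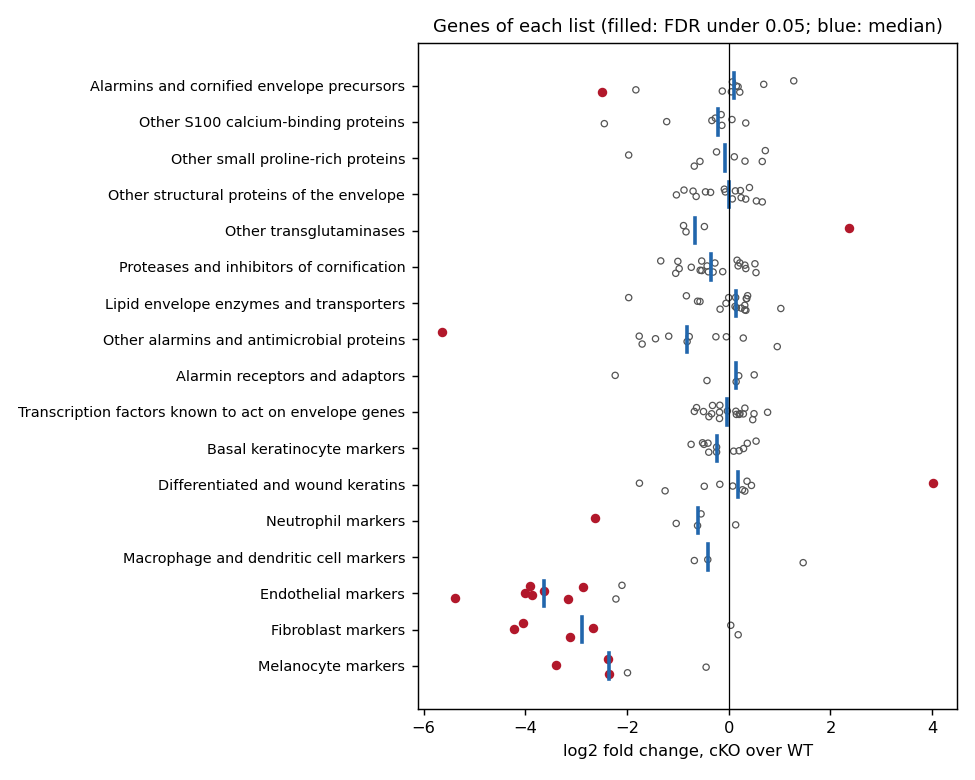
Log2 fold change, cKO over WT, of every analysed gene in 17 lists, 1 list per line; filled points have an FDR under 0.05 and the blue mark is the list's median. Medians of the 10 alarmin and envelope genes (0.11) and of other envelope proteins (0.0017) lie near 0, while those of endothelial (-3.64), fibroblast (-2.89) and melanocyte markers (-2.36) lie far below.

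Of the 10 genes, 7 lie in the epidermal differentiation complex on chromosome 3, a cluster of S100, small proline-rich and envelope genes. Between S100a1 and S100a10 (90511034 to 93564643, mm10) 35 genes were analysed, 18 with lower and 17 with higher values and a median of -0.13. S100a9 was the 1 called gene among them, or 2.86%, near the 2.61% of all genes called in either direction. The nearest analysed gene on the other side of S100a9, Pglyrp4, which encodes a peptidoglycan recognition protein, had 0.68 in the authors' deposited table. Next to S100a8, S100a6 had -0.15, and the neighbours of Sprr2d, Sprr2a3 and Sprr2e, had 0.66 and 0.32 in the authors' deposited table. On chromosome 7, Dmkn, which encodes dermokine and lies between Sbsn and Krtdap, had -0.09 in the authors' deposited table. The next analysed gene beyond Krtdap, 151271 bases away, was the hepcidin gene Hamp, which rose by 8.24 and averaged 2.25 CPM (FDR 6.42e-07 in the authors' deposited table).

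**Figure D5:**
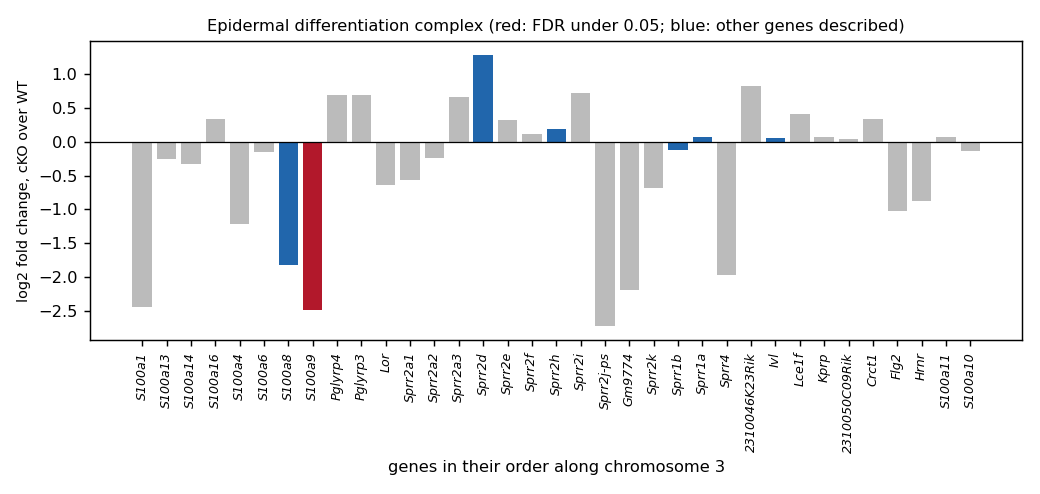
Log2 fold change, cKO over WT, of 35 analysed genes of the epidermal differentiation complex, in their order along chromosome 3 from S100a1 to S100a10; bars start at 0, red marks an FDR under 0.05 and blue marks the other alarmin and envelope genes described. S100a9 is the 1 red bar, and S100a1, Sprr2j-ps, Gm9774 and Sprr4 also have low values that did not pass.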

How the data were processed

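Per the labels' protocols, total RNA of sorted wound keratinocytes was amplified with a Nugen Trio kit and sequenced as paired 50-base reads. Per the submitters' processing notes, the tools were Trimmomatic 0.35, STAR 2.6.0c and RSEM, and the build mm10. The authors deposited a table of their own comparison, with a log2 fold change (WT over KO), a mean log2 CPM, a p-value and an FDR per gene, per the file headers; the tool behind it, and the libraries that entered it, are not given in the sources used here. No column of per-sample values, and so no depth per sample, was analysed. Signs were turned round to cKO over WT, as text notes beside 2 negative entries of a second deposited sheet place these higher in KO. Benjamini-Hochberg adjustment of the authors' p-values gave back their FDR within 7.17e-15. The deposited log2 CPM, read as base 2, sum to 1004360 CPM.

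Calls are the authors' FDR under 0.05 over 10664 genes. Implied standard errors, 0.622 to 0.732 for the 10 genes, are the absolute log2 fold change divided by the normal deviate of the p-value. Where that fold change was under 0.5, the larger median over lower or over higher genes was used, with changes of 0.5 to 3. These genes lay within 0.5 log2 CPM or in a window widened, up to 4 log2 CPM, until it held enough genes. GENCODE vM21, on the same build, gave symbols and positions for 10655 genes. Promoters came from RefSeq (GRCm38.p6), which matched all 10 genes, with the first window listed for each. Named genes were the 10 genes, Nfe2l2, the called genes of each list or those with the smallest p, S100 and Sprr genes at 16 CPM or more, and chromosomal neighbours; a few others were added after their values were seen. The genes and lists were chosen with earlier results of these data known. Calculations, tested on simulated data, used SciPy 1.17.1, pandas 2.3.3 and NumPy 2.4.6 in Python 3.11.15, and plots matplotlib 3.10.9. Alternatives were 2 other adjustments or nulls, a stricter threshold, 2 level filters, 3 centrings and other genotype weights.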

Additional observations from a re-analysis of the deposited data

How the results depend on the processing

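The counts of calls over all genes, over the 10 genes and over the other lists (278, 1 and 18 with the deposited FDR under 0.05) moved with most settings. They were 116, 0 and 8 under the Benjamini-Yekutieli adjustment, 152, 0 and 10 with adjusted p under 0.01, 104, 0 and 12 with the level filter of 5 CPM, 20, 0 and 4 with that of 16 CPM, and 593, 2 and 25 under the empirical null. The unadjusted p-values, under 0.05 for 3 of the 10 genes in the authors' table, do not depend on these settings. The log2 fold changes kept their sign in all 3 centrings, except Sprr1b (0.11 on basal keratinocyte markers) and Ivl (-0.017 on genes at 16 CPM or more). The median of the 10 genes was 0.04 to 0.35 under the centrings. The 20 implied levels moved by at most 12.2% with weights of 2 cKO and 3 WT libraries. The size of such a move follows from the fold change alone, so it tests nothing. No paired analysis was possible because values of single libraries were not analysed here, and for that reason no library was left out. With the deposited FDR, the smallest change called in any gene was 2.20 on the log2 scale.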

Other observations

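Enzymes and transporters of the lipid envelope, the ceramide layer bound to the outside of the cornified envelope, showed 0 called genes of 18 analysed by the authors' test, with 7 lower and 11 higher values and a median of 0.14. The lipoxygenase gene Alox12b had -0.0012, Alox12e 1.02 and Aloxe3 -0.61 in the authors' deposited table. The lipid transporter gene Abca12 had 0.35 and the ceramide synthase gene Cers3 0.32 in the authors' deposited table. The 1 gene with an unadjusted p under 0.05 was Ces1d, a carboxylesterase gene, with -1.97 at a mean level of 5.96 CPM (FDR 0.176 in the authors' deposited table).

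Proteases and inhibitors of cornification had 0 called of 20 analysed by the authors' test, also at an unadjusted p of 0.05, with 13 lower and 7 higher values and a median of -0.35. The kallikrein genes Klk8 and Klk7 had -1.34 and -1.04, and Spink5, which encodes a kallikrein inhibitor, had 0.52 in the authors' deposited table. Casp14, a caspase of cornification, had -0.56 in the authors' deposited table. Of 19 analysed transcription factors known to act on envelope genes, 0 were called by the authors' test or at an unadjusted p of 0.05, and the median was -0.03. Klf4, Grhl3 and Zfp750, which drive terminal differentiation, had -0.18, 0.14 and -0.34, and Gata3 had 0.76 in the authors' deposited table. In the list of differentiated and wound keratins, Krt2, a keratin of the upper epidermal layers, was the 1 called gene of 10 and rose by 4.02 (FDR 6.62e-06 in the authors' deposited table). The wound keratin Krt6b had an unadjusted p of 0.0122 with -1.76 and FDR 0.244 in the authors' deposited table.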
